A study of Mus musculus with 20 samples.

Results

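Oxidative phosphorylation is carried out by protein complexes of the inner mitochondrial membrane, and the transcripts of their nuclear-encoded subunits were followed in whole mouse lungs. Members were taken by gene name: the Ndufa, Ndufb, Ndufc, Ndufs and Ndufv genes of complex I, Sdha to Sdhd of complex II, the Uqcr genes of complex III, Cox4i1 and the Cox5 to Cox8 genes of complex IV, the Atp5 genes of complex V, and Sco2, an assembly gene of complex IV. The rule found 83 rows of 30746, which carry 82 names because Atp5o stands on 2 rows. They comprised 37 rows of complex I, 4 of complex II, 8 of complex III, 15 of complex IV, 18 of complex V and Sco2. A filter on low values left 81 rows for testing. It removed Cox6c2, annotated as a processed pseudogene, and the second Atp5o row, which held 19.2 units in VIPKO hypoxia library 2 and under 1 unit in the other libraries.

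The libraries fall into 4 groups. VIPKO mice, with a targeted deletion of the Vip gene for vasoactive intestinal peptide, gave 5 libraries after 4 weeks at 10% oxygen (VIPKO hypoxia) and 4 libraries at 21% oxygen (VIPKO normoxia). Wild-type C57BL/6 mice (WT) gave 5 libraries after the same hypoxia (WT hypoxia) and 6 at 21% oxygen (WT normoxia). The titles and the design text speak of a knockout and the genotype field of a knockdown, and age, sex and the strain background of the VIPKO mice are not given. Whole lung mixes all its cell types, and nothing in the labels ties each library to an animal of its own. The p-values therefore measure spread among these libraries, which may be technical.

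Complex I accepts electrons from NADH and complex II from succinate, complex III passes them to cytochrome c, and complex IV hands them to oxygen. Complexes I, III and IV pump protons as they do so, and complex V, the ATP synthase, uses the proton gradient to make ATP. Each complex apart from complex II joins nuclear-encoded subunits to others encoded in the mitochondrial genome. Lung endothelium, epithelium, smooth muscle and macrophages all carry these complexes at different densities, and striated muscle and brown fat carry them densely, with muscle-type isoforms of a few complex IV subunits.

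Values are the authors' normalized gene signal. Estimated depth ran from 4.96 to 56.7 M reads per library, least in WT hypoxia 4, and is uncertain in VIPKO hypoxia 2. Vip was low in both genotypes, at 0 to 12.7 units in 18 libraries, so it checks few labels. The exceptions were the library labelled VIPKO hypoxia 4 with 105.9 units, which goes against its label, and WT normoxia 5 with 93 units. On a principal component that carried 21% of the variance of all tested rows, VIPKO normoxia 2 and 3 and VIPKO hypoxia 2 lay at 59.2, 75.4 and 65.4, the highest 3 scores. WT hypoxia 5 had a summed skeletal muscle marker signal of 39370, against 47.6 to 1215 in the other 19 libraries, and VIPKO hypoxia 3 had a thymus marker sum of 14270, against at most 26.3 elsewhere. The summed signal of white and brown adipocyte markers was 19400 in WT hypoxia 5 and 1208 to 6034 in the others. Lung markers were present throughout. Comparisons of members below that leaving out these libraries moved are also given without them, and those of other genes only in part.

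Subunit transcripts stood lowest in WT normoxia and at similar levels in the other 3 groups. The summed signal of all subunits was 61790, 56480, 78590, 66290 and 56400 in VIPKO hypoxia and 50330, 59540, 55180 and 66200 in VIPKO normoxia. It was 66090, 56780, 61860, 53560 and 98910 in WT hypoxia, and the 6 WT normoxia libraries ran from 38670 through a median of 46450 to 50850. All hypoxia libraries of both genotypes lay above all WT normoxia libraries, VIPKO normoxia overlapped WT normoxia through its library 1, and WT hypoxia 5 was the highest of the 20. The mean was 63910 ± 9183 over the 5 VIPKO hypoxia libraries, 57810 ± 6739 over the 4 of VIPKO normoxia, 67440 ± 18230 over the 5 of WT hypoxia and 45770 ± 4378 over the 6 of WT normoxia (± SD). In bulk lung RNA, fewer cells of a type and less RNA per cell cannot be told apart.

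WT normoxia was also lowest on average for each complex, and complex II stood nearest to it in VIPKO lungs. For each library and complex, the median over subunits of the log2 difference from the WT normoxia mean was taken. Complex I averaged 0.54 ± 0.21 in VIPKO hypoxia, 0.43 ± 0.20 in VIPKO normoxia and 0.46 ± 0.31 in WT hypoxia (SD over libraries). Complex II averaged 0.40 ± 0.20 in VIPKO hypoxia, 0.27 ± 0.18 in VIPKO normoxia and 0.55 ± 0.40 in WT hypoxia. Complex IV had the highest VIPKO values, at 0.72 ± 0.22 in hypoxia and 0.58 ± 0.30 in normoxia, beside 0.58 ± 0.41 in WT hypoxia. These differences between complexes were smaller than or close to the spread between libraries, and no test was made of them.

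**Figure D1:**
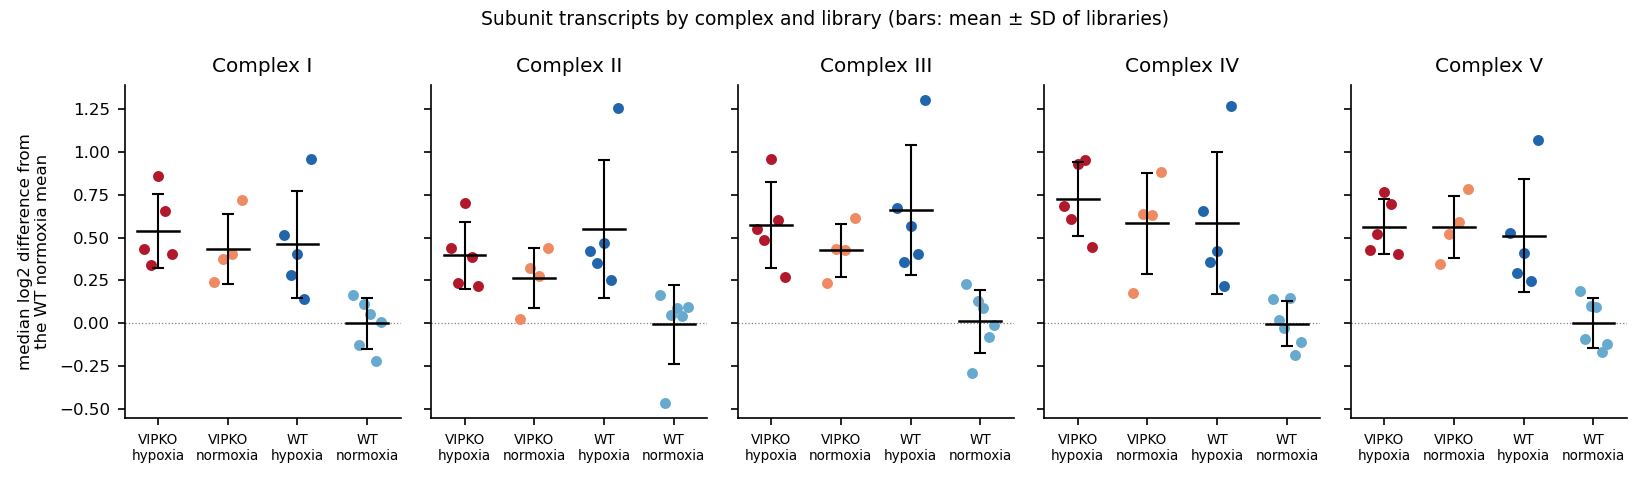
Each point is 1 library: the median, over the subunits of a complex, of the log2 difference from the WT normoxia mean; bars are the mean ± SD of the 5 VIPKO hypoxia, 4 VIPKO normoxia, 5 WT hypoxia and 6 WT normoxia libraries. WT normoxia has the lowest mean in every panel, and WT hypoxia 5 is the highest point in each.

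In normoxia, 26 subunits were higher in VIPKO than in WT lungs, spread over complexes I, III, IV and V. All 81 tested members were fitted within 1 limma model over 21658 rows on log2(signal + 1), and a member is called when its Benjamini-Hochberg adjusted p over all those rows is below 0.05. The share of members called higher was 32.1%, against 4.69% of all tested rows. Sco2 was the only member called lower, where 3.96% of all rows were. The median log2 change of the 81 members was 0.45 and that of all tested rows was 0.01, and 76 members had a positive change. By complex, 10 of 37 subunits of complex I rose, 0 of 4 of complex II, 2 of 8 of complex III, 5 of 14 of complex IV and 9 of 17 of complex V. In complex II, 1 subunit, Sdhd, had an unadjusted p below 0.05 (limma).

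Atp5k, the e subunit of the ATP synthase, which helps join the enzyme into dimers, rose most. Its signal was 175, 196, 222 and 295 units in VIPKO normoxia, against 21.6 to 95.4 units (median 57.9) in WT normoxia. Every VIPKO normoxia library lay above every WT normoxia library. The log2 change was 2.02 ± 0.38 (SE; limma, adjusted p = 0.00555). Its locus lies on chromosome 5, 108433244 to 108434448 on the minus strand (GRCm38), and another annotated gene matches its transcript at 95% identity or more, so its count is uncertain.

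Atp5l, the g subunit, which sits beside subunit e in the membrane part of the synthase, rose as well. It had 691, 752, 788 and 1063 units in VIPKO normoxia, against 438 to 594 units (median 537) in WT normoxia. The groups did not overlap, and the log2 change was 0.63 ± 0.12 (SE; limma, adjusted p = 0.00555). It is the member with the most near-identical copies, 9 other annotated genes. Among other complex V members that rose, Atp5mpl, a small membrane subunit, changed by 0.94 ± 0.17 on the log2 scale (SE; limma, adjusted p = 0.00481), and the peripheral stalk subunit Atp5pb by 0.61 ± 0.13 (SE; limma, adjusted p = 0.00934). The gamma subunit Atp5c1, part of the rotating central stalk, rose by 0.69, and Atp5md, a small membrane subunit, by 1.16. Of 20 fits that each left out 1 library, Atp5c1 kept its call in 18 and Atp5md in 8. The groups overlapped for Atp5md, at 223 to 494 units in VIPKO normoxia and 43.9 to 294 units in WT normoxia.

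The promoters of Atp5k, Atp5l and Sco2 are shown because Atp5k and Atp5l rose in VIPKO normoxia while Sco2 fell. Windows run from 250 bases before to 50 bases after the RefSeq start (GRCm38.p6), all on the minus strand, at chr5:108434350-108434649 for Atp5k, chr9:44920693-44920992 for Atp5l and chr15:89373842-89374141 for Sco2. Capitals mark matches on either strand to GCGCATGCG (NRF1-type), AAGATGGCG (YY1-type), CCGGAAG (ETS-type) and AAGGTCA (ERR-type).
Atp5k: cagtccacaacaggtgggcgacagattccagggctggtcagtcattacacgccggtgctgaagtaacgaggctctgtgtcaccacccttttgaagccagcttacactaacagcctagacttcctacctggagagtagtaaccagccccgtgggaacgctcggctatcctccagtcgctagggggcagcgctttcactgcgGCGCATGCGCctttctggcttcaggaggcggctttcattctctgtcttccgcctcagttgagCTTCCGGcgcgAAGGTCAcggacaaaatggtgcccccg
Atp5l: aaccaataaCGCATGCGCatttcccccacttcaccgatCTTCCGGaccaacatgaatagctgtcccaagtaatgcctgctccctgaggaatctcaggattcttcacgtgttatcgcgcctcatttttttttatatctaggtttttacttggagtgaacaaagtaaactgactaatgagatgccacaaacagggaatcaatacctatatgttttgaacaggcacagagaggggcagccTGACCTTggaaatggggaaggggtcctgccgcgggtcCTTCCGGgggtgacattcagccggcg
Sco2: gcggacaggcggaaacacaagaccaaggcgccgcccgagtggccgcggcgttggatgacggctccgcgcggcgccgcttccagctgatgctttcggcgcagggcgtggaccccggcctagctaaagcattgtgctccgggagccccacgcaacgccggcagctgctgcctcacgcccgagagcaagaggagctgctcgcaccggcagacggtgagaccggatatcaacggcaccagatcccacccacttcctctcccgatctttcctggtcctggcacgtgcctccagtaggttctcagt

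The Atp5k and Atp5l windows held NRF1-, ETS- and ERR-type matches, and the Sco2 window held none of the 4 motifs. In Atp5k, the NRF1-type run is a palindrome in which 2 overlapping matches, 1 on each strand, were counted as 1 run. Promoter windows were available for 68 members. NRF1-type letters stood in 11.8% of them, against 1.95% of the 27025 gene windows, and YY1-type letters in 10.3%, against 1.64%. ETS-type letters stood in 25.0%, against 9.93%, and ERR-type letters in 11.8%, against 5.38%. The core of the hypoxia response element, ACGTG, left in lower case above, stood in 27.9% of member windows and 21.8% of all windows. The hypoxia core was found in 25.6% of the 39 windows of members that rose in WT hypoxia and in 18.2% of the 22 windows of members that rose in VIPKO normoxia. In those 22 windows, NRF1-type and ERR-type letters each stood in 9.09%, YY1-type in 18.2% and ETS-type in 31.8%, on either side of the shares over all members. For NRF1-type and for ERR-type letters that share was 2 windows, those of Atp5k and Atp5l. The pair shown therefore does not stand for the other members that rose. All motif counts are matches of letters, not measured binding.

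In complex I, Ndufa5, an accessory subunit of the matrix arm, had the smallest adjusted p. It held 119, 162, 155 and 187 units in VIPKO normoxia, against 48.0 to 84.0 units (median 59.8) in WT normoxia. No VIPKO normoxia value fell among the WT normoxia values. The log2 change was 1.31 ± 0.22 (SE; limma, adjusted p = 0.00306), and no other annotated gene overlapped its locus or matched its transcript. Ndufa3, an accessory subunit of the membrane arm, rose by 0.90 ± 0.19 on the log2 scale (SE; limma, adjusted p = 0.00986), also without overlap between the groups. Unlike that of Ndufa5, its locus overlaps another gene, Tfpt on the opposite strand. Ndufv2, an iron-sulfur subunit of the NADH-binding module, rose by 0.59 ± 0.14 (SE; limma, adjusted p = 0.0138). The row named Ndufb1 rose by 1.49 ± 0.33 (SE; limma, adjusted p = 0.0107), but the annotation classes it as a bidirectional promoter RNA overlapping Cpsf2 on the opposite strand, and the counting strand is not given. Ndufa4, placed with complex I by its name although its product is known as a subunit of complex IV, rose by 0.73.

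Uqcrb, the small quinone-site subunit of complex III, rose more than its partners. It held 220, 422, 433 and 305 units in VIPKO normoxia, against 79.2 to 172 units (median 126) in WT normoxia. The groups were apart, with VIPKO normoxia 1 the nearest to WT. Its log2 change was 1.42 ± 0.27 (SE; limma, adjusted p = 0.00534), and 3 other genes match its transcript closely. Uqcrh, the hinge protein beside cytochrome c1, rose by 0.61 ± 0.16 (SE; limma, adjusted p = 0.0259).

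In complex IV, 5 nuclear-encoded subunits that surround the catalytic core rose. Cox6c held 776, 818, 715 and 1059 units in VIPKO normoxia, against 348 to 686 units (median 437) in WT normoxia. The groups did not overlap, and WT normoxia 2 was the nearest to them. The log2 change of Cox6c was 0.91 ± 0.23 (SE; limma, adjusted p = 0.0191). Cox5b, a zinc-binding subunit, rose by 1.12, Cox7c by 0.76, Cox7a2 by 0.63 and Cox6b1 by 0.59. Of 20 single leave-outs, Cox5b kept its call in 15, Cox7c in 17, Cox7a2 in 13 and Cox6b1 in 7. Cox5b overlapped between the groups because WT normoxia 2 held 387 units, above the 368 units of VIPKO normoxia 1.

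Of a list of 9 catalytic, electron-carrying and structural subunits, 0 passed the threshold in VIPKO normoxia (limma), while Ndufv2 and Atp5c1, which are not on that list, passed. The list holds Ndufs1 and Ndufv1 of the NADH-binding module, the flavoprotein Sdha and the iron-sulfur subunit Sdhb, the core protein Uqcrc1, the Rieske protein Uqcrfs1, Cox4i1, Cox5a, and Atp5b, the catalytic beta subunit. Their log2 changes ran from 0.05 for Uqcrc1 to 0.42 for Cox5a, and only Cox5a had an unadjusted p below 0.05 (limma). These 9 had a median transcript length of 1653 bases, against 750.5 bases for the 26 members called higher. Shorter transcripts changed more in this comparison, so the kind of subunit and its transcript length cannot be told apart here. Atp5b held 5637, 6657, 6025 and 7203 units in VIPKO normoxia, against 4252 to 6714 units (median 6188) in WT normoxia. The groups overlapped, and the 95% interval of its log2 change ran from -0.24 to 0.45. Members with a negative change included 2 small subunits: Atp5g2, one of several genes for the c subunit, changed by -0.90 (limma, adjusted p = 0.132), and Ndufb4 by -0.19 (limma, adjusted p = 0.643). Atp5g2 averaged 10.9 units in VIPKO normoxia and 21.8 units in WT normoxia, near the filter of 10 units. The other c subunit genes held more signal and were higher on average in VIPKO normoxia. Atp5g1 averaged 229 units there against 157 units in WT normoxia, and Atp5g3 919 units against 779 units.

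Sco2 delivers copper to cytochrome c oxidase as that complex is built, and it moved the other way. It held 45.2, 9.53, 12.5 and 40.1 units in VIPKO normoxia, against 49.1 to 252 units (median 76.1) in WT normoxia. All VIPKO normoxia values lay below the lowest WT value, the closest pair being 45.2 and 49.1 units. The log2 change was -2.10 ± 0.49 (SE; limma, adjusted p = 0.0145). Sco2 kept its call in 18 of 20 single leave-outs and lost it without VIPKO normoxia 2 and without VIPKO normoxia 3, its 2 lowest libraries. It was also not called with a correction for length and GC content, where 5 members were called higher and 0 lower. Its locus, chromosome 15, 89371637 to 89373846 on the minus strand (GRCm38), overlaps Ncaph2 and Tymp, and 2 other annotated genes match its transcript closely. Reads of these genes cannot be told apart from those of Sco2 with the files used here.

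**Figure D2:**
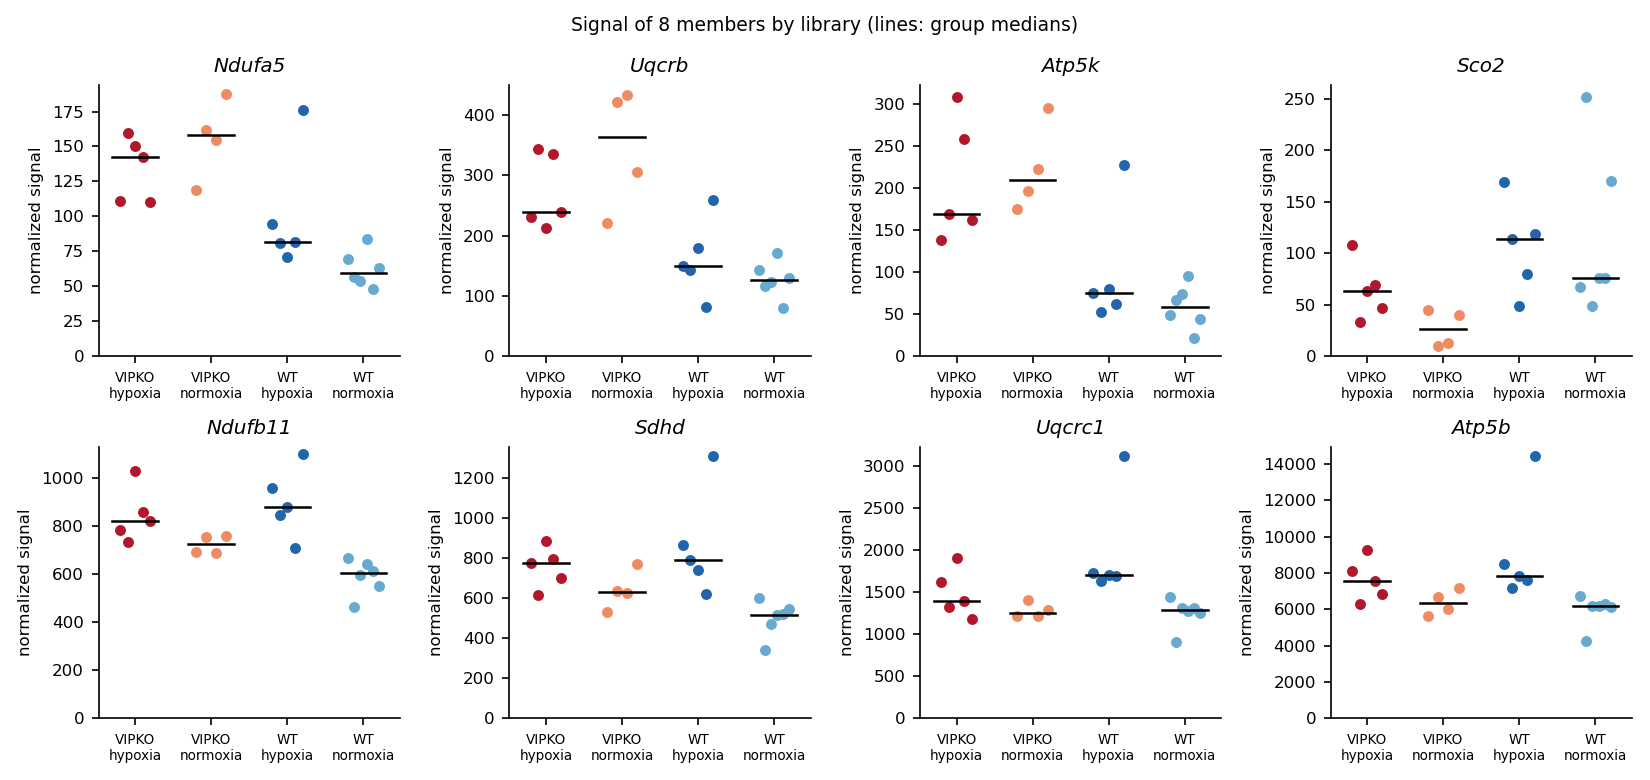
Normalized signal of 8 members in each library (points) with group medians (lines), for VIPKO hypoxia, VIPKO normoxia, WT hypoxia and WT normoxia from left to right. Medians of Ndufa5, Uqcrb and Atp5k are higher in both VIPKO groups than in both WT groups, that of Sco2 is lowest in VIPKO normoxia, and those of Ndufb11, Sdhd and Atp5b are lowest in WT normoxia. The median of Uqcrc1 is 1250 units in VIPKO normoxia and 1292 units in WT normoxia, and WT hypoxia 5 is the highest library for Ndufb11, Sdhd, Uqcrc1 and Atp5b.

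How many members were called in VIPKO normoxia depended on single libraries, and so did the calls over all rows. Leaving out VIPKO normoxia 2, 3 or 4 left 8, 12 or 7 of the 27 calls, with 0.884%, 2.28% or 0.992% of all rows called higher and a median change of the members of 0.45, 0.48 or 0.36. Leaving out WT normoxia 6 left 17, with 3% of all rows called higher, and Atp5k, Atp5l, Atp5mpl, Ndufa3, Ndufa5 and Uqcrb were called in all 20 single leave-outs. Without VIPKO normoxia 2 and 3 and VIPKO hypoxia 2 no member and 0% of all rows were called higher (limma), while the members' median log2 change was 0.46 and 75 of 81 changes were positive. Mitochondrial ribosomal RNA was also higher in VIPKO normoxia. Its summed signal was 4506 to 9415 in VIPKO hypoxia, 12030 to 27210 in VIPKO normoxia, 396.5 to 7058 in WT hypoxia and 97.7 to 2075 in WT normoxia. With this sum as a covariate 0 members and 0 of all rows were called (limma, 11 members at an unadjusted p below 0.05). The members' median change was then -0.14. The sum did not overlap between VIPKO normoxia and WT normoxia, so this covariate cannot be told apart from genotype in that comparison. Its part in the difference was therefore not tested.

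Shorter transcripts changed more in VIPKO normoxia. The 32 members with transcripts under 700 bases had a median log2 change of 0.57, against 0.32 for the 49 longer ones. Across the 81 members, Spearman's rho between log2 change and length was -0.43, and across the 21274 tested rows with a length it was -0.21. With GC content, rho was -0.23 over the members and -0.29 over those rows. For hypoxia in VIPKO, rho with GC content was 0.36 over the members and 0.30 over those rows. Members are short, with a median length of 838 bases against 2532.5 bases for all rows. A correction for length and GC content left 5 members called higher and 0 lower, with a median change of 0.24. Of all rows, 0.827% were called in either direction with it and 8.65% without it. In WT hypoxia the members' rho with length was -0.09, and that correction called 53 members and 18.5% of all rows, against 46 members and 14.7% of all rows without it. These correlations are across genes, which share libraries and are not independent replicates.

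**Figure D3:**
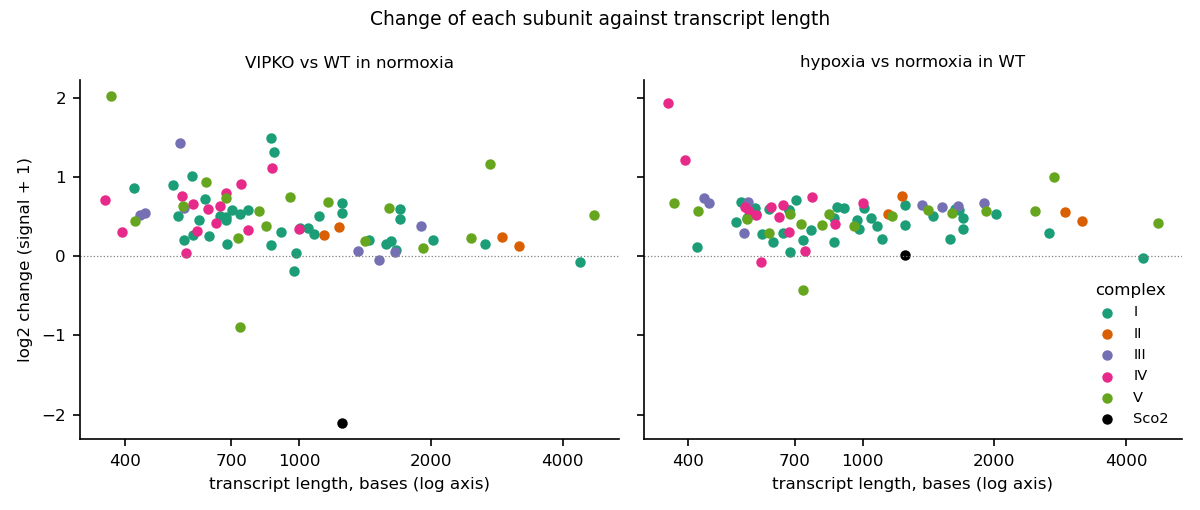
Each point is 1 member: log2 change against transcript length in bases (log axis), for VIPKO against WT in normoxia and for hypoxia against normoxia in WT, coloured by complex. Short members lie higher in the VIPKO panel, where rho was -0.43, while changes in WT hypoxia lie near 0.5 at most lengths.

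After 4 weeks of hypoxia, subunits of all 5 complexes were higher in WT lungs, catalytic ones included. Of 81 members, 46 were higher in WT hypoxia than in WT normoxia, or 56.8% against 7.88% of all tested rows, and 0 were lower, where 6.77% of all rows were (limma, with 58 members at an unadjusted p below 0.05, all higher). Their median log2 change was 0.53, that of all rows was -0.01, and 78 members had a positive change. By complex, 17 of 37 subunits of complex I rose, 4 of 4 of complex II, 7 of 8 of complex III, 8 of 14 of complex IV and 10 of 17 of complex V. This comparison and that of VIPKO with WT in normoxia share the WT normoxia libraries, so their values stand side by side here and likeness between them is no separate result.

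In complex II, which also belongs to the citrate cycle, all 4 subunits were called higher with all libraries. Sdhd, a membrane anchor, held 864, 792, 740, 622 and 1308 units in WT hypoxia, against 343 to 599 units (median 518) in WT normoxia. The groups did not overlap, and the log2 change was 0.77 ± 0.16 (SE; limma, adjusted p = 0.00768). Sdha, which oxidizes succinate, rose by 0.55 ± 0.14 (SE; limma, adjusted p = 0.0184), Sdhb by 0.53 ± 0.17 (SE; limma, adjusted p = 0.0448) and the other anchor, Sdhc, by 0.44 ± 0.12 (SE; limma, adjusted p = 0.0207). Without WT hypoxia 5, Sdhb at 0.33 (limma, adjusted p = 0.123) and Sdhc at 0.34 (limma, adjusted p = 0.0594) were not called. Sdhb kept its call in 8 of 20 single leave-outs.

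Among complex I subunits, the accessory subunit Ndufb11 had the smallest adjusted p of all members. Its values were 961, 846, 881, 708 and 1099 units in WT hypoxia, against 464 to 666 units (median 605) in WT normoxia. Every WT hypoxia value exceeded every WT normoxia value. The log2 change was 0.60 ± 0.11 (SE; limma, adjusted p = 0.00354), with 1 near-identical gene annotated. Ndufb9 and Ndufa7, accessory subunits, rose by 0.71 and 0.68. Ndufv1, which binds NADH, rose by 0.58 ± 0.18 (SE; limma, adjusted p = 0.0338). Of the list of 9 members given above, Ndufs1 was the one that did not pass, with a log2 change of 0.29 ± 0.11 (SE; limma, adjusted p = 0.0831).

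In complex III, 7 subunits rose by 0.62 to 0.74 on the log2 scale. Uqcrc1 held 1729, 1636, 1700, 1691 and 3114 units in WT hypoxia, against 902 to 1436 units (median 1292) in WT normoxia. The first 4 WT hypoxia libraries lay close together above all WT normoxia libraries, and WT hypoxia 5 lay far above them. The log2 change was 0.63 ± 0.15 (SE; limma, adjusted p = 0.0143). Uqcrh rose by 0.68, Uqcr10, a small subunit, by 0.74, and Uqcrfs1 by 0.65. Uqcrb, raised in VIPKO normoxia, changed here by 0.30 (limma, adjusted p = 0.42).

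Complex IV and complex V gave changes of similar size. Cox4i1, the largest nuclear-encoded subunit of complex IV, held 3193, 2722, 2902, 2064 and 4186 units in WT hypoxia, against 1074 to 2349 units (median 1893) in WT normoxia. The groups overlapped through WT hypoxia 4, and the log2 change was 0.74 ± 0.19 (SE; limma, adjusted p = 0.0168). Cox8a and Cox7b, small structural subunits, rose by 0.57 and 0.67. Atp5b held 8502, 7167, 7846, 7603 and 14450 units in WT hypoxia, against 4252 to 6714 units (median 6188) in WT normoxia, without overlap. It rose by 0.58 ± 0.15 (SE; limma, adjusted p = 0.0202), as did the alpha subunit Atp5a1 by 0.57 and the central stalk subunit Atp5d by 0.58. Atp5k, at 75.2, 52.5, 80.2, 62.2 and 227 units in WT hypoxia, overlapped WT normoxia and changed by 0.67 ± 0.36 (SE; limma, adjusted p = 0.192). Sco2 changed by 0.02 ± 0.46 (SE; limma, adjusted p = 0.984).

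**Figure D4:**
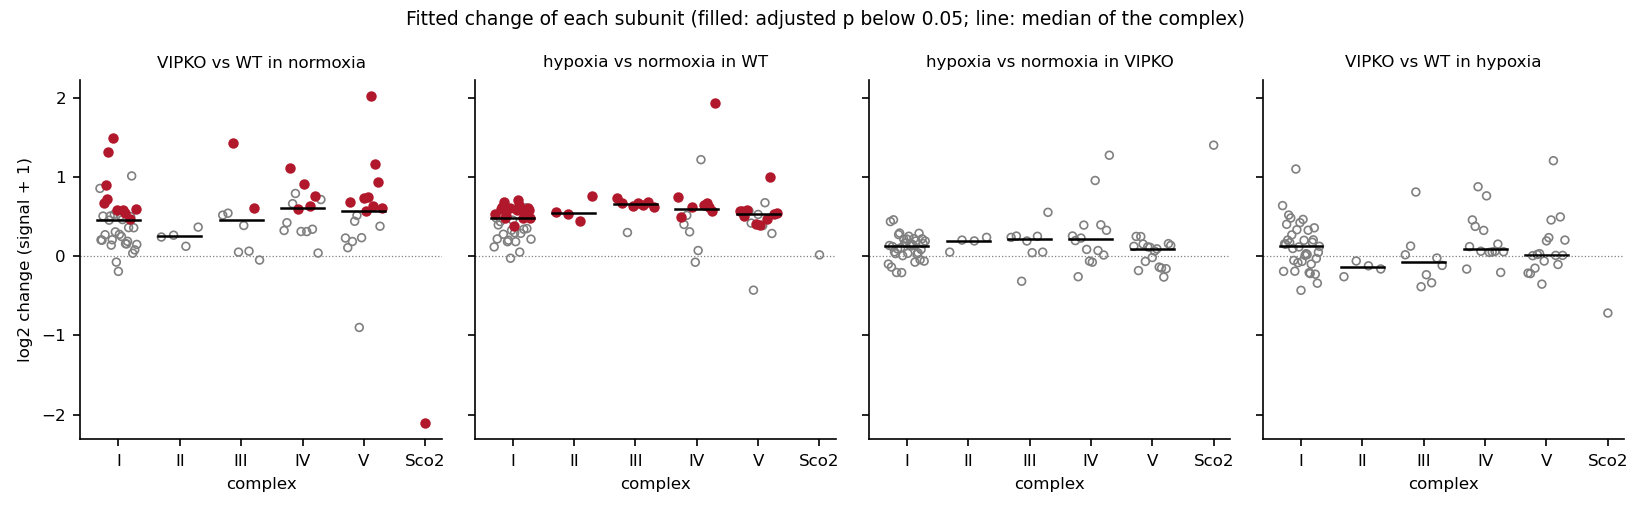
Each point is 1 tested member: its fitted log2 change in 4 comparisons, by complex, with filled points past an adjusted p of 0.05 and lines at the median of the complex. In VIPKO normoxia 26 members are filled above 0 and Sco2 below it, in WT hypoxia 46 are filled, all above 0, and in the other 2 comparisons none is.

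WT hypoxia 5, the library with muscle and adipocyte markers, held the highest summed subunit signal, and the hypoxia result was smaller without it. Then 21 members were called, all of them among the 46, with 5.16% of all rows higher and a median log2 change of 0.39. They comprised 7 subunits of complex I, 2 of complex II, 4 of complex III, 4 of complex IV and 4 of complex V, with 5 of the list of 9. Without WT hypoxia 1, 26 members and 4.26% of all rows were called higher, with a median change of the members of 0.51. In all, 20 members, among them Sdha, Sdhd, Uqcrc1, Cox4i1, Atp5a1 and Atp5b, passed in all 20 single leave-outs.

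All 3 muscle-type isoforms of complex IV were far higher in that library than in the other WT hypoxia libraries. Cox6a2 held 229.6 units there, against 45.1 to 66.4 units in the others of its group, while VIPKO hypoxia 4 held 203 units. Cox8b, the isoform of striated muscle and brown fat, held 42.8, 25.4, 22.1, 34.99 and 436 units in WT hypoxia, against 7.87 to 18.4 units (median 12.99) in WT normoxia. All 5 WT hypoxia libraries lay above WT normoxia, 4 of them by a small margin. The log2 change of 1.93 ± 0.62 (SE; limma, adjusted p = 0.0426) became 1.17 ± 0.47 (SE; limma, adjusted p = 0.109) without WT hypoxia 5. Cox7a1 changed by 1.22 (limma, adjusted p = 0.112), and by 0.54 without that library, and Cox6a2 changed by 0.31 (limma, adjusted p = 0.588), and by -0.09 without it. Per kilobase of transcript, Cox8b made up 2.9% to 18% of Cox8a plus Cox8b in VIPKO hypoxia, 2.19% to 5.96% in VIPKO normoxia, 3.06% to 30.7% in WT hypoxia and 1.82% to 3.03% in WT normoxia. For Cox7a1 within Cox7a2 plus Cox7a1, the share was 48.4% in WT hypoxia 5 and 26.4% in VIPKO hypoxia 1, the libraries with the highest muscle marker sums, and at most 17.1% in the other 18. For Cox6a2 within Cox6a1 plus Cox6a2, the share was 10.7% in WT hypoxia 5, below the 12.1% of VIPKO hypoxia 4 and the 18.2% of WT normoxia 2. The summed signal of cardiac muscle markers was 1962 to 10280 in VIPKO hypoxia and 3412 to 12320 in VIPKO normoxia. It was 1664 to 17280 in WT hypoxia, highest in WT hypoxia 5, and 2964 to 7681 in WT normoxia. The part of striated muscle in these isoforms and in the other subunits was not tested.

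**Figure D5:**
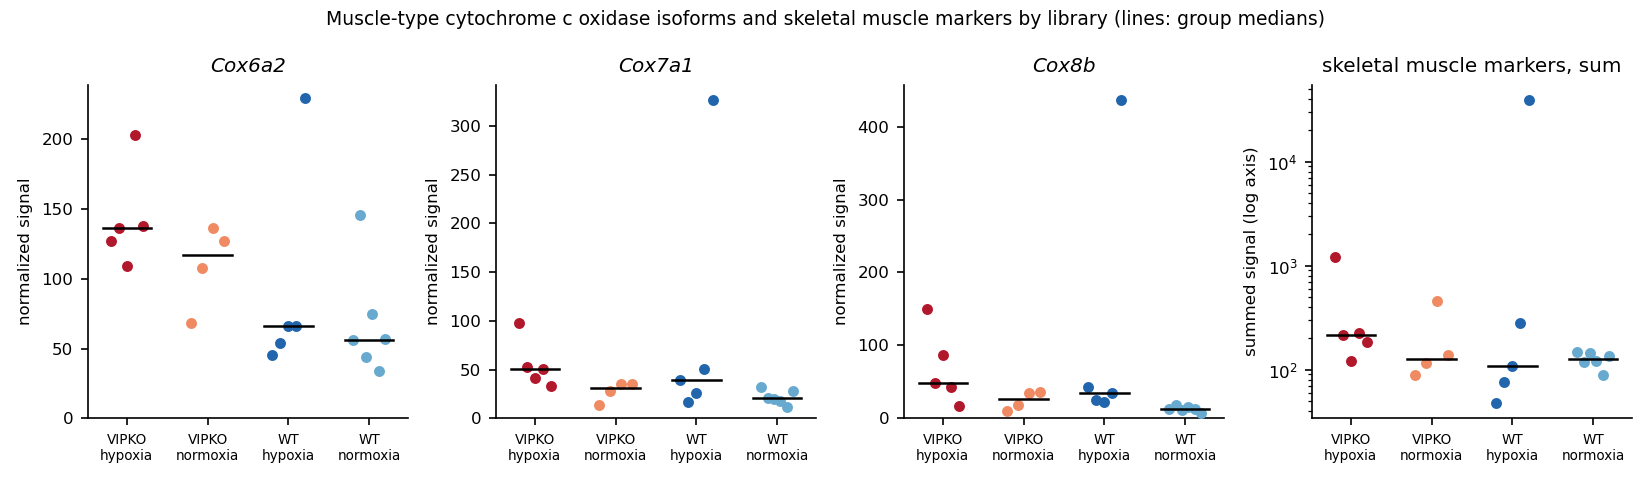
Normalized signal of the muscle-type isoforms Cox6a2, Cox7a1 and Cox8b, and the summed signal of skeletal muscle markers (log axis), in each library with group medians as lines. WT hypoxia 5 stands alone in the Cox7a1, Cox8b and marker panels, and Cox6a2 is also high in VIPKO libraries and in WT normoxia 2.

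Within VIPKO lungs, no member passed the threshold in VIPKO hypoxia against VIPKO normoxia (limma), where 0.614% of all rows were called higher and 0.383% lower. The median log2 change was 0.13, 63 of 81 changes were positive, and 6 members had an unadjusted p below 0.05, all higher. Sco2 was one of them: it held 108, 32.7, 63.6, 68.97 and 46.6 units in VIPKO hypoxia, against 45.2, 9.53, 12.5 and 40.1 units in VIPKO normoxia. The groups overlapped, and the log2 change was 1.40 ± 0.51 (SE; limma, adjusted p = 0.229). Uqcrq, a small complex III subunit, changed by 0.55 (limma, adjusted p = 0.274), and Cox8a by 0.33 (limma, adjusted p = 0.328). Without the library labelled VIPKO hypoxia 4, 0 members were called and the median was 0.12. The median was 0.046 with 54 positive changes without VIPKO hypoxia 3, the library with thymus markers, and 0.062 with 52 positive changes without VIPKO normoxia 1. For Atp5b the 95% interval of the change ran from -0.11 to 0.60, which does not exclude the size seen in WT.

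In hypoxia, VIPKO lungs did not differ from WT lungs in any member past the threshold. Of all tested rows, 0.716% were called higher and 0.9% lower (limma), and the members' median log2 change was 0.049. Single leave-outs moved that median between -0.013, without WT hypoxia 4, and 0.19, without WT hypoxia 5, and it was 0.0028 without VIPKO hypoxia 3. At an unadjusted p below 0.05 there were 14 members, 13 of them higher and Uqcrc1 lower. Cox6c had the smallest adjusted p, with 732, 667, 868, 1026 and 708 units in VIPKO hypoxia, against 432, 433, 422, 307 and 904 units in WT hypoxia. WT hypoxia 5 alone reached the VIPKO range, and the log2 change was 0.76 ± 0.22 (SE; limma, adjusted p = 0.0755). Atp5k changed by 1.204 (limma, adjusted p = 0.0927), the Ndufb1 row by 1.10 (limma, adjusted p = 0.0766) and Uqcrb by 0.81 (limma, adjusted p = 0.104). Without WT hypoxia 5, 6 members were called higher, 0 in complex I, 1 in complex III, 2 in complex IV and 3 in complex V. Cox6a2 was among them at a log2 change of 1.27 ± 0.32 (SE; limma, adjusted p = 0.0483). The Cox6a2 locus overlaps Itgad on the opposite strand, and the counting strand is not given, so its count is uncertain. Without the library labelled VIPKO hypoxia 4, 0 were called and the median was 0.027. The rho with length was -0.52 over the members here, against -0.18 over all rows, and with the correction for length and GC content the members' median change was -0.16.

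The difference between the hypoxia responses of the genotypes was tested directly as an interaction, VIPKO minus WT. No member was called (limma), with 0.134% of all rows called higher and 0.148% lower, and 20 members had an unadjusted p below 0.05, all negative. The median was -0.39 and 75 of 81 values were negative. Without WT hypoxia 5 the median was -0.23 and 16 values were positive. Atp5l had the smallest adjusted p, at -0.62 ± 0.17 (SE; limma, adjusted p = 0.106), followed by Atp5c1 at -0.68 (limma, adjusted p = 0.181). Ndufa5 gave -0.83 (limma, adjusted p = 0.233), Atp5md -1.26 (limma, adjusted p = 0.248) and Sdha -0.50 (limma, adjusted p = 0.298). Sco2 was positive, at 1.38 (limma, adjusted p = 0.365). The VIPKO normoxia and WT hypoxia groups both enter this value with a negative sign, so it is not independent of the comparisons above.

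Other genes of the pathway moved in part. Of 13 mitochondrially encoded subunits, 3 were called higher in VIPKO than in WT normoxia, with a median log2 change of 0.69: mt-Atp8 by 3.80, mt-Nd6 by 1.19 and mt-Nd4l by 1.07. None was called in WT hypoxia (limma, 0 at an unadjusted p below 0.05), where the median was 0.18. Both mitochondrial ribosomal RNAs were called higher in VIPKO normoxia, by 4.49 and 5.06, and neither in WT hypoxia. Of 14 complex I assembly genes, Ndufaf2 and Ndufaf5 rose in VIPKO normoxia by 0.79 and 0.76, and Ndufaf3 and Ndufaf8 rose in WT hypoxia by 0.45 and 0.48. Of 28 assembly genes of the other complexes, Cox20 and Coa6, both used in building complex IV, rose in VIPKO normoxia by 1.24 and 0.90. The median of these 28 was 0.033 there, with 15 positive changes. In WT hypoxia 4 of them rose, Coa6 by 0.53, Surf1 by 0.39, Cox14 by 0.38 and Coa5 by 0.27, with a median of 0.23. Of all tested rows, 4.69% were called higher in VIPKO normoxia and 7.88% in WT hypoxia. Without VIPKO normoxia 2 and 3 and VIPKO hypoxia 2, 0% of all rows were called higher in VIPKO normoxia (limma). The genes given as higher there in this and the following paragraphs were then not called higher.

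Citrate cycle enzymes moved with the subunits in WT hypoxia, where 7 of 13 were called higher with a median log2 change of 0.47. Mdh2, the mitochondrial malate dehydrogenase, held 1366, 1384, 1274, 1318 and 2391 units in WT hypoxia, against 861 to 1125 units in WT normoxia. The groups did not overlap, and the log2 change was 0.63 ± 0.14 (SE; limma, adjusted p = 0.01). Without WT hypoxia 5, 5 of 13 were called and the median was 0.29. In VIPKO normoxia Dld alone was called, at 0.42. Of 6 subunits outside the name patterns, Cox7a2l, which helps assemble supercomplexes, and Cyc1, the cytochrome c1 of complex III, rose in WT hypoxia by 0.67 and 0.58 and none was called in VIPKO normoxia (limma, 1 at an unadjusted p below 0.05).

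Of 7 regulators tied to hypoxia and mitochondria, 4 rose in WT hypoxia: Bnip3 by 0.81 and Bnip3l by 0.35, receptors for mitophagy, Pdk1, which restrains pyruvate dehydrogenase, by 0.66, and Mxi1 by 0.54. In VIPKO normoxia none of the 7 was called (limma, 3 at an unadjusted p below 0.05). Of 9 regulators of mitochondrial biogenesis, Ppargc1a, a coactivator, was called in WT hypoxia at 0.64, and held 487 units in WT hypoxia 5 and 194 to 250 units in the other WT hypoxia libraries. Without WT hypoxia 5 none of the 9 was called. Gabpa, which encodes an ETS factor subunit, was called in VIPKO normoxia at 0.30. None of these lists had a called gene in VIPKO hypoxia against VIPKO normoxia, VIPKO against WT in hypoxia or the interaction (limma), with 0 to 6 genes per list at an unadjusted p below 0.05.

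Markers of other cells also moved. In VIPKO against WT normoxia, 2 of 4 macrophage markers and 2 of 9 tested adipocyte markers were higher, 1 of 5 lung epithelial markers was higher and 1 of 4 endothelial markers was lower. Without VIPKO normoxia 2 and 3 and VIPKO hypoxia 2, none of these markers was called higher. The summed macrophage marker signal ran from 5497 to 72500 in VIPKO normoxia, highest in library 2. In WT hypoxia against WT normoxia, 6 adipocyte, 2 macrophage and 3 epithelial markers were higher and 2 endothelial markers were lower. None of 8 tested skeletal muscle or 10 cardiac markers was called in either comparison (limma, at most 2 per list at an unadjusted p below 0.05). Their part in the subunit differences was not tested.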

How the data were processed

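Lung RNA of 20 libraries was analysed from 1 deposited table, whose columns were matched to samples by the library names in the labels. Per the labels' protocols, RNA came from the RNeasy Mini Plus kit and libraries from the NEBNext Ultra II Directional kit, and the genome build mm10 and the software Partek are named per the submitters' processing notes. Not given in the sources used here: aligner, counting strand, Partek version and method of normalization. The deposited values are normalized gene counts, used as a signal: low values lay within 0.05 of whole multiples of a step for 82.1% to 89.1% of cases in 19 libraries and 41.2% in VIPKO hypoxia 2, so no count model was run and depths, which cover counting error only, are estimates. Rows without a name held 0.00487% to 0.0187% of the signal.

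Rows with at least 10 units in at least 4 libraries were kept (21658). Log2(signal + 1) was fitted with limma 3.58.1 (R 4.3.3), 4 group means and a variance trend over all 20 libraries, with Benjamini-Hochberg adjustment over all rows, and fold changes on that scale understate those of low genes. The fit was tested on simulated data. Loci and lengths come from GENCODE (GRCm38), near-identical genes from blastn 2.17.0 (95% identity over 200 bases), and promoter windows from RefSeq (GRCm38.p6). Python 3.11.15, pandas 2.3.3 and matplotlib 3.10.9 made tables and figures.

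Members and lists were chosen with earlier results of these data known. Genes were named by rule: per complex, up to 4 called members in each direction by smallest adjusted p, or the member of smallest p where none was called, plus Sco2, a list of 9 subunits, Atp5e, Atp5k, and the muscle-type isoforms with their partners, and up to 3 called genes of each other list. A gene that this rule named is not reported here. Members named beyond the rule were chosen after their values were seen: Atp5md, Atp5c1, Atp5g2, Ndufb4, Ndufa4, Cox6b1, Coa5 and Mxi1. Ndufa5 in the interaction and Uqcrb for hypoxia in WT were also reported beyond the rule, which named them in other comparisons. Alternatives covered the pseudocount, filter, rescaling, quantile normalization, variance trend, array weights, the groups fitted, the replicate number as a block, length and GC content, a ribosomal RNA covariate, and leaving out libraries.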

Additional observations from a re-analysis of the deposited data

Results flagged for a closer look

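Of 120 groups of libraries examined over 30 measures (24 members and 6 sums), 26 held a library far from the others by Dixon's criterion, which chance exceeds in about 1 in 20 groups. WT hypoxia 5 stood highest of its group in 16. It held 175.9 units of Ndufa5, against 70.6 to 94.2 units in the other 4 libraries of WT hypoxia, 1748 units of Ndufs1 against 1049 to 1206, and 1925 units of Ndufv1 against 976 to 1191. The same library held 5975 units of Sdha, 1229 units of Sdhb, 3114 units of Uqcrc1, 903.5 units of Cox6c and 14450 units of Atp5b. It also held 229.6 units of Cox6a2, 326.7 units of Cox7a1, 436.3 units of Cox8b and 227.3 units of Atp5k. Its sums were 10140 for complex II, 11280 for complex III, 37740 for complex V and 98910 for all subunits.

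WT normoxia 2 stood apart in 8 measures of its group. It was lowest for Ndufs1 at 831.3 units, Ndufv1 at 502.5 units, Sdha at 1744 units, Uqcrc1 at 901.7 units, Atp5b at 4252 units and the complex II sum at 3203. It was highest for Cox6c at 686.2 units and Cox6a2 at 145.8 units, so these members lay at opposite ends of the group in 1 library. VIPKO hypoxia 3, the library with thymus markers, was highest for Ndufb9 at 826.1 units and Cox4i1 at 3848 units.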

How the results depend on the processing

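The number of members called (27 in VIPKO normoxia, 46 in WT hypoxia, 0 in the other comparisons) changed by over 1.5 times in the following cases. For VIPKO against WT in normoxia, 5 were called with the length and GC correction, 0 with the ribosomal RNA covariate, and 0 when VIPKO hypoxia 2 and VIPKO normoxia 2 and 3 were left out together. That covariate cannot be told apart from genotype in normoxia, which also holds for the sign changes under it below. For hypoxia in WT, 19 were called with the covariate. For VIPKO against WT in hypoxia, array weights gave 1, the covariate 1, and leaving out WT hypoxia 5 and VIPKO hypoxia 3 gave 6. Array weights gave 6 for the interaction, all negative. Single leave-outs gave 7 to 33 in VIPKO normoxia, 21 to 52 in WT hypoxia, 0 to 6 for VIPKO against WT in hypoxia and 0 to 1 for the interaction (1 without VIPKO hypoxia 3, 1 without WT hypoxia 4). Where 1 fit lost calls without another value showing why, the cause was not tested.

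With the replicate number as a block, 11 members were called in VIPKO normoxia, 10 of them higher, and 21 in WT hypoxia. The block with the length and GC correction gave 0 and 43. Replicate numbers did not pair the libraries: 7 of 27 same-number pairs had a correlation above 0.1, in a range of -0.289 to 0.41. Under the block, Cox8a turned to -0.031 in VIPKO normoxia and Sdha to -0.0049 for hypoxia in VIPKO. Under the block with the correction, the reversals were Cox8a -0.17 and Uqcrfs1 -0.010 in VIPKO normoxia, Cox6a2 -0.021 in the interaction, and Cox5a -0.22, Atp5e -0.42, Cox8b -0.46, Cox7a2 -0.22 and Cox7a1 -0.43 for VIPKO against WT in hypoxia.

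Other log2 changes that turned sign were, apart from Ndufa3 and Cox7a2 in VIPKO normoxia, of uncalled members. With the ribosomal RNA covariate these were, in VIPKO normoxia, Ndufa3 -0.11, Sdhd -0.45, Cox7a2 -0.023, Cox5a -0.15, Sdhb -0.39, Atp5e -0.071, Sdha -0.65, Atp5b -0.66, Cox8b -1.11, Uqcrc1 -0.65, Ndufs1 -0.32, Cox4i1 -0.50, Ndufv1 -0.77, Uqcrfs1 -0.23, Cox6a1 -0.069 and Cox7a1 -1.24. For hypoxia in VIPKO they were Ndufs1 0.073 and Atp5k 0.19, for VIPKO against WT in hypoxia Cox5a -0.16, Atp5e -0.23, Cox8b -0.84, Cox7a2 -0.27 and Cox7a1 -0.72, and in the interaction Sdhb 0.0085, Atp5b 0.062, Cox8b 0.27, Ndufv1 0.0136, Cox6a1 0.085 and Cox7a1 0.53. With the length and GC correction they were Atp5e -0.0039, Cox8a -0.17, Uqcrfs1 -0.0100 and Cox7a1 -0.18 in VIPKO normoxia, Sco2 -0.0375 for hypoxia in WT, Ndufs1 0.028 for hypoxia in VIPKO, and Cox5a -0.22, Atp5e -0.42, Cox8b -0.46, Cox7a2 -0.22 and Cox7a1 -0.43 for VIPKO against WT in hypoxia. Without VIPKO hypoxia 2 and VIPKO normoxia 2 and 3 they were Cox8a -0.042 in VIPKO normoxia and Cox7a2 -0.0070 for VIPKO against WT in hypoxia. Without WT hypoxia 5 and VIPKO hypoxia 3 they were Cox6a2 -0.090 and Sco2 -0.053 for hypoxia in WT, Atp5e -0.063 for hypoxia in VIPKO, Sdhb 0.0083 and Atp5e -0.070 for VIPKO against WT in hypoxia, and Cox7a1 0.49 in the interaction. Quantile normalization turned Sdha to -0.018 for hypoxia in VIPKO, and Cox8b to -0.042 and Cox7a1 to -0.047 for VIPKO against WT in hypoxia. Array weights turned Cox7a2 to -0.025 for hypoxia in VIPKO, Atp5e to -0.19 and Cox7a2 to -0.063 for VIPKO against WT in hypoxia, and Cox7a1 to 0.0059 in the interaction. A pseudocount of 10 turned Cox7a1 to -0.025 for VIPKO against WT in hypoxia.

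Single leave-outs turned the sign of 17 uncalled changes. In VIPKO normoxia the ranges were -0.024 to 0.14 for Cox8a, -0.060 to 0.15 for Ndufv1 and -0.039 to 0.095 for Uqcrc1. For hypoxia in WT they were -0.090 to 0.56 for Cox6a2 and -0.18 to 0.29 for Sco2. For hypoxia in VIPKO they were -0.063 to 0.27 for Atp5e, -0.30 to 0.0074 for Atp5k, -0.10 to 0.18 for Cox7a2 and -0.0044 to 0.10 for Sdha. For VIPKO against WT in hypoxia they were -0.19 to 0.15 for Atp5e, -0.33 to 0.72 for Cox7a1, -0.013 to 0.14 for Cox7a2, -0.31 to 0.82 for Cox8b and -0.19 to 0.13 for Sdhb. In the interaction they were -0.16 to 0.48 for Cox6a2, -0.64 to 0.41 for Cox7a1 and -1.02 to 0.10 for Cox8b. Of all values computed for named members under alternatives, 4046 kept direction and side of the threshold, 159 lost the threshold, 37 gained it and 107 turned sign. Fits on the compared groups alone have no interaction. Near-identical genes, the unknown counting strand and the estimated depths limit what can be said of single subunits.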
